A study of Homo sapiens with 6 samples.

Results

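Metallothioneins are small, cysteine-rich proteins that bind zinc, copper and cadmium. Their human genes lie in a row on chromosome 16, next to BBS2. Of the 14 probe sets that read these genes, 12 had a negative difference between K562 cells carrying a CTCF expression vector and cells carrying the empty vector, as did 53.2% of all probe sets. The median difference of the 14 was -0.91 on the log2 scale. The genes described here are MT1E, MT1F, MT1G, MT1H, MT1M, MT1X, MT2A, MT3 and MT4 with BBS2, 10 of the 19775 genes that have a probe set of their own. They are read by 14 of the 54675 probe sets of the array, 13 for metallothioneins and 1 for BBS2, and 0 of the 14 carry a second gene name. The genes were grouped by name and position after earlier results of the same comparison were known. Their values in that comparison are therefore a description. Where the fit over all probe sets calls some of them, the count is given beside the share of all probe sets and nothing is read from it.

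K562 is an established human chronic myeloid leukemia line that expresses erythroid and megakaryocytic genes. All cells were stable transfectants of the pCDNA vector without further treatment. The 2 empty vector arrays, called controls, came from KpCDNA cells, and the 4 CTCF arrays came from KCTCF-D11, a single named line with the same vector carrying CTCF, the zinc finger protein of insulators and chromatin loops. An effect of CTCF, a property of the KCTCF-D11 line and a property of the KpCDNA line cannot be told apart here. RNA was measured on Affymetrix Human Genome U133 Plus 2.0 arrays, on which a probe set is a group of probes that together give 1 value for a transcript.

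MT2A and the MT1 genes are expressed in many tissues and are induced by metals and by glucocorticoids, while MT3 is best known from brain and MT4 from stratified epithelium. The zinc-sensing transcription factor MTF1 drives their induction by binding metal response elements, short motifs near the gene start. MTF1 also acts on SLC30A1, the gene of a zinc exporter in the plasma membrane. BBS2 encodes a subunit of the BBSome, a complex that carries membrane proteins into and out of the primary cilium, and is mutated in Bardet-Biedl syndrome.

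The sequences before the gene starts are shown because several of the genes that were lower are known targets of MTF1. RefSeq's promoter table (GRCh38.p14) held 5 of the 10 genes, and the 250 bases before the annotated start of 4 of them are printed 5′ to 3′ on the gene's strand. Capitals mark matches to TGCACNC or TGCGCNC, the core of the metal response element, on either strand. The window of MT2A is chr16:56608334-56608583 (plus strand), that of MT1X is chr16:56682220-56682469 (plus strand), that of MT1H is chr16:56669564-56669813 (plus strand) and that of BBS2 is chr16:56520025-56520274 (minus strand).
MT2A: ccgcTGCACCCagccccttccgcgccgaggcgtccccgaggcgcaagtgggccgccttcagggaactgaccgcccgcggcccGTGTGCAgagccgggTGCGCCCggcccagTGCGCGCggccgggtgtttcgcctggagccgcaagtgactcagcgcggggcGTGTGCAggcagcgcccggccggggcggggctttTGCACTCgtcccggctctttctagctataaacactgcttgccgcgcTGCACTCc
MT1X: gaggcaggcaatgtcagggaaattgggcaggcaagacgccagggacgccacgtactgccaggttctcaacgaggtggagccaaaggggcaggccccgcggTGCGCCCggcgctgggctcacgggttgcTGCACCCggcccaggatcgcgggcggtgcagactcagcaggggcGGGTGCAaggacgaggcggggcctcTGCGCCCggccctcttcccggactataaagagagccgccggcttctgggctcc
MT1H: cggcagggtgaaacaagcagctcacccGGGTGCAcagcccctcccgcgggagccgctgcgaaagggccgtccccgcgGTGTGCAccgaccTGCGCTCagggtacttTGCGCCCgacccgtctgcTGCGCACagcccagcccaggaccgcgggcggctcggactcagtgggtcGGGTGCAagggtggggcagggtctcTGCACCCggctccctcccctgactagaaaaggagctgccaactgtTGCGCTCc
BBS2: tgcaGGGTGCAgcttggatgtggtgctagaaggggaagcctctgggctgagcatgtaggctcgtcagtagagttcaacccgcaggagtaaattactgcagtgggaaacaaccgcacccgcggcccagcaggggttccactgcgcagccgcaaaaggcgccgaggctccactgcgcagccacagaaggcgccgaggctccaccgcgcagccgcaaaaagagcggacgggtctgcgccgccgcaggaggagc

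The window of MT2A held 7 matches, that of MT1H held 8 and that of MT1X held 4, with none overlapping another. MT4 had 3 matches, and BBS2 had 1, centred 243 bases before its start. Of 35116 windows of the same length in the table, 24.8% held at least 1 match, 1.05% at least 3 and 0.208% at least 4. Matches centred about 50 and 75 bases before the start recurred in MT1H and MT1X, at exactly 50 and 75 in both, and MT2A had 1 at 51. A match is a run of letters and does not show that a factor binds there.

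**Figure D1:**
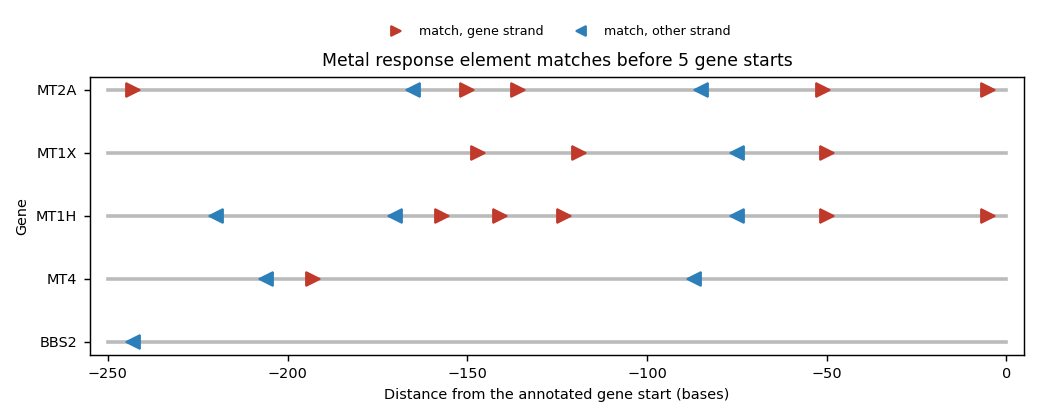
Positions of metal response element matches (triangles, pointing right for the gene strand and left for the other strand) in the 250 bases before 5 gene starts, with the distance from the start in bases on the horizontal axis. MT2A, MT1H and MT1X hold 7, 8 and 4 matches, MT4 holds 3 and BBS2 holds 1.

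The arrays split into 2 sets that crossed the groups, which bears on every value below. Clustering on 45 bacterial and phage spike-in probe sets placed empty vector array 1 with CTCF array 4 (the smaller set) and grouped the 4 remaining arrays as the larger set. The 3' minus 5' difference of the ACTB control probe sets was, as log2 values, 0.81 and 0.91 in the smaller set against 0.22 to 0.28 in the larger. That of the GAPDH control probe sets did not separate the sets, at -0.12 on empty vector array 1 and on CTCF array 4 and between -0.15 and -0.11 on the others. Array medians were 28.8 to 34.2. CTCF itself (202521_at) read 457 and 634 in the control arrays and 1311 to 1614 in the CTCF arrays. Of 11 measured erythroid and megakaryocytic markers none had a mean under 16, with GATA1 at 1312 and 1129 in the group means, and embryonic HBZ rose (adjusted p = 0.0166 in limma with the array set as a block). Among markers of other cells, CD3D, the gene of a CD3 chain in the T cell receptor complex, fell (adjusted p = 0.025 in limma). It went from 1335 ± 24.0 (SD, n = 2) to 642 ± 30.8 (SD, n = 4), while the other 4 T and B cell markers had means of at most 102. The HBZ and CD3D calls ended with the group as the only term (adjusted p = 0.128 and 0.167 in limma) and without any array other than CTCF array 1 (adjusted p = 0.0983 to 0.34 and 0.105 to 0.398), fits in which 0 to 8 of all 54613 probe sets passed. The 7 monocyte and granulocyte markers, led by LYZ, the 5 fibroblast, 5 epithelial (KRT18 brightest) and 3 hepatocyte markers (with TTR the brightest) gave 0 calls in limma, with 2 of these 20 genes at an unadjusted p under 0.05, as were 21.4% of all genes. COL3A1, a fibroblast collagen, read 6627 and 6114 in the smaller set but 146 to 165 in the larger, so it followed the set and not the group.

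Changes are differences of log2(value + 16), CTCF minus empty vector, from limma with the array set as a block, given ± SE. The 16 added to each value makes changes of dim probe sets look smaller. The labels leave unstated whether replicates are separate cultures, so the error behind each p-value is that between these arrays and may be technical, and the number of arrays limits the precision. In such bulk RNA, fewer cells that express a gene and less RNA per cell cannot be told apart.

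MT2A was the brightest metallothionein, above 92.1% of all probe sets in its mean log2 value. Its probe set (212185_x_at) read 2444 in empty vector array 1 and 1028 in empty vector array 2, and 448, 573, 576 and 1549 in CTCF arrays 1 to 4. The groups overlapped, because CTCF array 4 was above empty vector array 2, but within each array set the CTCF arrays were lower. The difference was -0.82 ± 0.16, 1.77-fold lower, with -0.65 in the smaller set against -0.94 in the larger. Group means were 1736 ± 1001 (SD, n = 2) and 787 ± 512 (SD, n = 4), a spread that mostly follows the sets.

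MT1G had the largest difference of the 14 probe sets in this fit. It is read by 204745_x_at, at 225 and 283 in the control arrays and 70.1, 72.2, 57.3 and 54.9 in CTCF arrays 1 to 4. Every CTCF array was below both empty vector arrays, in both sets. The means were 254 ± 40.8 (SD, n = 2) and 63.6 ± 8.79 (SD, n = 4), and the difference was -1.82 ± 0.13, 3.54-fold lower. It was -1.77 in the smaller set against -1.86 in the larger. A second MT1G probe set (210472_at) lay between 2.58 and 7.67 on all arrays, with a difference of 0.01 ± 0.16, so MT1G is described by 1 of its 2 probe sets.

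MT1X had 2 probe sets, and both were lower. The brighter, 204326_x_at, read 488 and 311 in the control arrays and 90.6, 140, 93.2 and 291 in CTCF arrays 1 to 4. CTCF array 4 came close to the lower empty vector array without reaching it. The difference was -1.14 ± 0.24, with -0.72 and -1.42 in the smaller and larger sets. The platform annotation names this probe set MT1X, but the accession it lists belongs to MT1L in RefSeq, a transcribed pseudogene of the cluster, so which of these it reads is uncertain. The other MT1X probe set (208581_x_at) read 59.0 and 84.8 against 8.53 to 29.4, a difference of -1.26 ± 0.31.

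MT1H and MT1E followed the same direction. MT1H (206461_x_at) read 131 and 206 in the control arrays and 53.4, 77.6, 94.1 and 66.5 in CTCF arrays 1 to 4, a difference of -1.12 ± 0.23. MT1E read 156 and 211 against 95.2, 91.7, 96.8 and 116 on 212859_x_at, a difference of -0.77 ± 0.17, or 1.71-fold lower. Neither probe set had an overlap between the groups. The dimmer MT1E probe set (216336_x_at), at 28.5 and 62.6 against 6.54 to 25.3, had a difference of -1.18 ± 0.27, also with no overlap.

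MT1F and MT1M were less clear. The MT1F probe sets overlapped between groups. The first, 213629_x_at, read 56.3 and 72.0 against 28.2 to 64.5 and had a difference of -0.45 ± 0.26. The second, 217165_x_at, had 27.6 and 123 in the empty vector arrays, with 21.5 to 48.3 in the CTCF arrays, and a difference of -0.89 ± 0.29. That second value came mainly from the larger set, where it was -1.34, against -0.22 in the smaller. MT1M (217546_at) lay between 1.00 and 4.42 on all arrays, above 3.03% of probe sets, so its difference of -0.15 ± 0.12 cannot be read.

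MT3 and MT4 lie between BBS2 and MT2A in RefSeq order and had differences of opposite sign. MT4 (217395_at) read 233 and 99.7 in the control arrays and 41.2, 36.7, 39.3 and 136 in CTCF arrays 1 to 4, a difference of -0.93 ± 0.13. The CTCF array of the smaller set was above the empty vector array of the larger, and within each set the CTCF arrays were lower, by -0.71 and -1.07. MT3 (205970_at) read 235 and 106 against 117, 116, 172 and 253, and its groups overlapped widely. Its difference was 0.21 ± 0.19, above 0 in both sets, and it turned to -0.02 with the group as the only term.

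BBS2 lies on the other side of MT4 and was lower too. Its only probe set (223227_at) read 128 and 287 in the control arrays and 85.7, 86.0, 86.2 and 43.3 in CTCF arrays 1 to 4. All CTCF arrays were below both empty vector arrays. The means were 207 ± 113 (SD, n = 2) and 75.3 ± 21.3 (SD, n = 4), and the difference was -1.45 ± 0.12, 2.74-fold lower, with -1.28 and -1.57 in the smaller and larger sets.

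**Figure D2:**
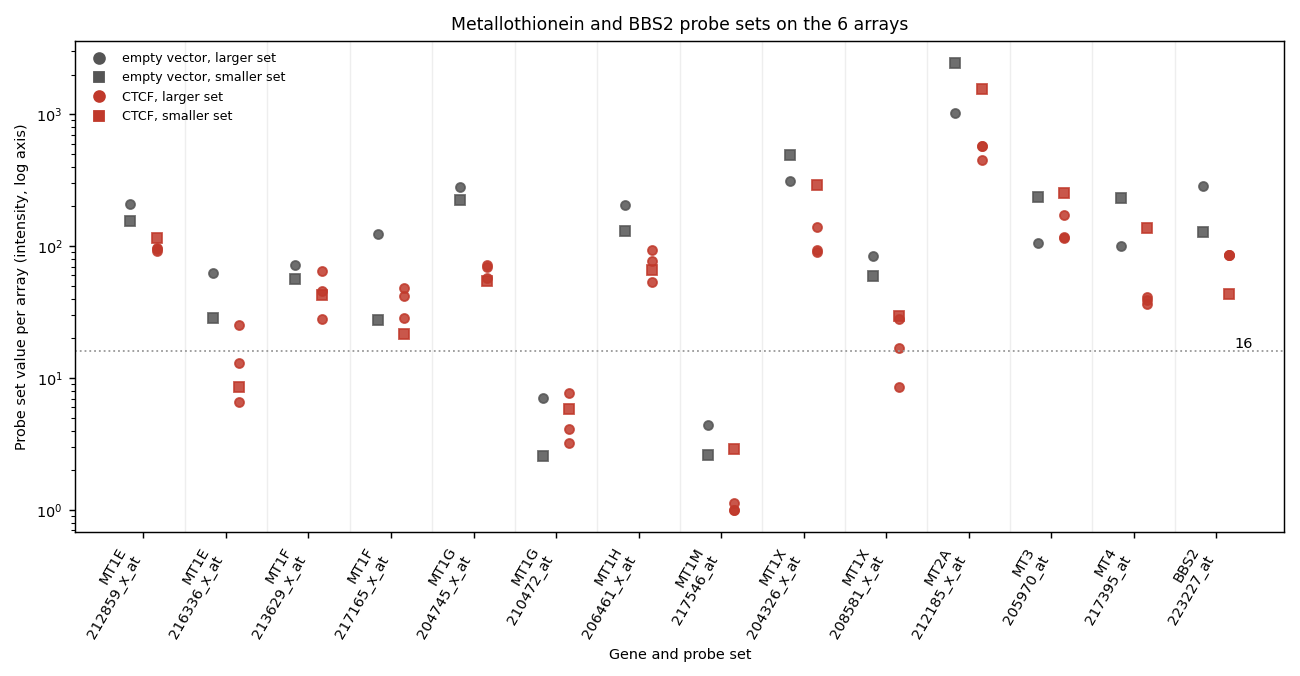
Value of each of the 14 probe sets on each array (intensity, log axis), with empty vector arrays in grey, CTCF arrays in red, squares for the smaller array set and circles for the larger. MT1G (204745_x_at) and BBS2 separate the groups, while in MT2A and MT4 the CTCF array of the smaller set lies above the empty vector array of the larger set. The dotted line marks 16.

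Over the 14 probe sets, 12 had a negative difference and 11 were negative within both array sets, with a median of -0.91 against -0.02 over all 54613 probe sets tested. The median was -0.68 in the smaller set against -1.19 in the larger. In 7 of the 14 every CTCF array lay below both empty vector arrays, and in 0 above, where 7.18% of all probe sets lay below in that way. At an adjusted p of 0.05 (Benjamini-Hochberg, limma), MT1G (204745_x_at), MT4 and BBS2 passed, 3 of 14, all lower, where 1.32% of all probe sets passed as lower. Nothing is read from these counts, since the genes were grouped with this comparison known. All 14 were fitted, and 11 of them have a mean log2 value above the median of all probe sets.

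Fits without the block or with 1 array fewer made 0 to 762 calls among all probe sets, against 1017, which limits what the members' counts there can show. With the group as the only term 0 of 14 passed, where 6 of all 54613 did, while 13 of 14 were negative with a median of -1.05. Without CTCF array 1, 2 of 14 passed and 762 of all. Without any other single array 0 of 14 passed, and 0 to 8 of all. Over the 6 fits that leave out 1 array, the difference of MT1G (204745_x_at) was -1.86 to -1.77 and that of BBS2 -1.57 to -1.28. Without an array of the smaller set, the larger set alone gives the difference. Without empty vector array 2, the smaller set alone gives it. The ends of both ranges are thus the differences within the sets given above, and add nothing to them.

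**Figure D3:**
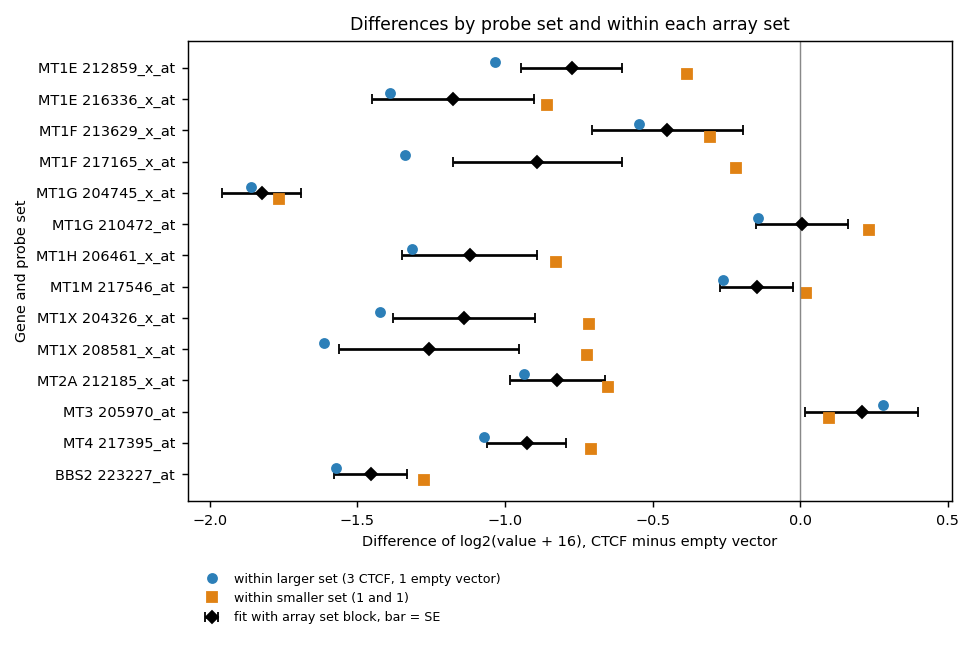
Difference of log2(value + 16), CTCF minus empty vector, for each probe set (black diamonds with SE, from the fit with the array set block), beside the difference within the larger set (blue circles) and within the smaller set (orange squares). Of the 14 probe sets 11 are below 0 in both sets, and MT3 is above 0 in both.

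The probe sets of the MT1 genes and MT2A are not independent readings. The metallothionein genes resemble each other closely, and 9 of the 13 metallothionein probe sets have the suffix _x_at, by which the manufacturer marks probes that may read several similar transcripts. All 9 had negative differences, against 53.2% of all probe sets, and in 6 of them every CTCF array lay below both controls, against 7.18% of all. The 4 others are MT3, MT4, MT1M and the dim MT1G probe set. How many distinct metallothionein genes differ cannot be read from these values. MT1HL1 (211456_x_at), an MT1H-like gene and the only other of 12 listed metallothionein genes and pseudogenes with a probe set of its own here, read 8.05 and 30.1 against 1.00 to 4.10. Its difference of -0.98 ± 0.20 did not pass (adjusted p = 0.0767 in limma), but passed with a variance trend (adjusted p = 0.0321, the lowest over its alternatives, which reached 0.732).

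Relative to the array sets the members fell into different patterns. MT2A, MT4, MT1X (204326_x_at) and MT3 were brighter in the smaller set, by 1.41, 1.32, 1.05 and 0.93 on the log2 scale, as the set term of the same fit. BBS2 and MT1F (217165_x_at) were dimmer there, by -0.90 and -1.01. MT1G (204745_x_at) and MT1H had set terms of -0.25 and -0.31. The sets also differ in the 3' to 5' difference of ACTB but not in that of GAPDH, both given above, and the part of RNA quality in these values was not tested.

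**Figure D4:**
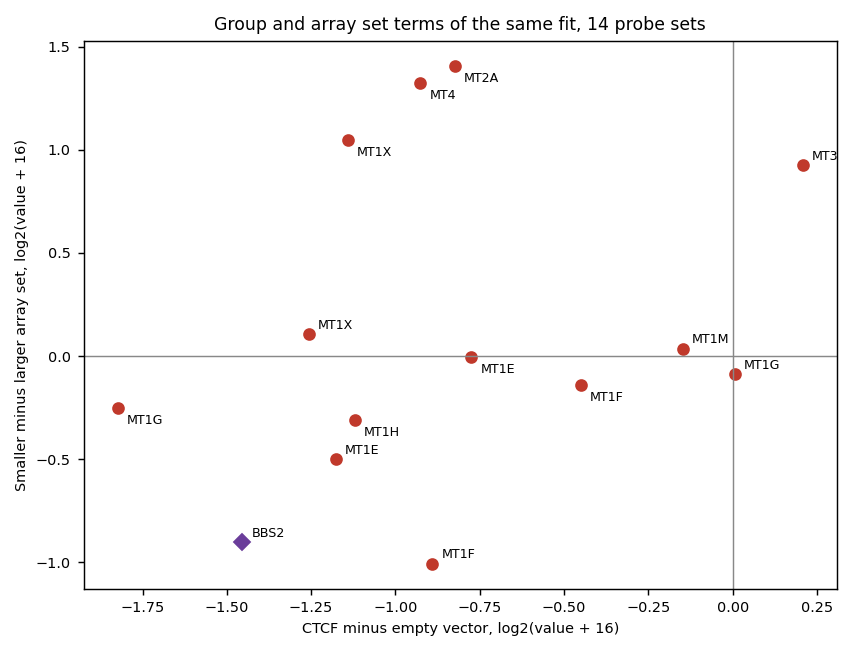
Group term (horizontal, CTCF minus empty vector) against array set term (vertical, smaller minus larger set) of the same fit for the 14 probe sets, both in log2(value + 16), with metallothioneins as red circles and BBS2 as a purple diamond. MT2A and MT4 lie at 1.41 and 1.32 on the set axis and BBS2 at -0.90, while all of these are negative on the group axis.

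The pattern of MT2A over the 6 arrays was matched most closely by RPA3, UNC13A, GXYLT2, RALB and SCRN2. These have the highest Pearson r of log2 values among genes outside the family with a mean above the median, from 0.998 for RPA3, a subunit of replication protein A, to 0.993 for SCRN2. Spearman's rho was 1 for all but RALB, a Ras-like GTPase, at 0.943. The 6 arrays share their groups and sets, and r is given as a description. RPA3 itself differed by only -0.15 ± 0.11 between groups, from 2924 ± 293 (SD, n = 2) to 2529 ± 244 (SD, n = 4). Among the other metallothionein probe sets, the r with MT2A was highest for MT4, at 0.983, and MT1X (204326_x_at), at 0.952. For the rest it ran from -0.34 (MT1G, 210472_at) to 0.73 (MT3), with 0.17 and -0.22 for MT1F. For BBS2 it was 0.10. With each array set centred on its own mean, r with MT2A was 0.935 for MT4, 0.992 for MT1H and 0.955 for BBS2. It was 0.43 and 0.82 for the MT1F probe sets and -0.37 for MT3. Each set holds only 1 empty vector array, so a probe set lower in both sets tends to a high r. This r therefore largely restates the group difference.

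No probe set of MTF1 or of its target SLC30A1 passed. MTF1 is read by 3 probe sets whose differences did not share 1 sign. The brightest by mean log2 value, 227150_at, read 72.1 and 146 in the control arrays and 179, 302, 240 and 84.5 in CTCF arrays 1 to 4, a difference of 0.46 ± 0.23 (adjusted p = 0.388 in limma). The other MTF1 probe sets had -0.04 ± 0.14 and -0.08 ± 0.15, both within their SE of 0. Of these, 205322_s_at read 354 and 291 in the smaller set but 75.8 to 86.4 in the larger. SLC30A1 (212907_at) read 188 and 363 against 462, 954, 831 and 266, higher in the CTCF arrays within each set. Its difference of 0.75 ± 0.32 did not pass (adjusted p = 0.3 in limma), and its other probe sets had 0.87 ± 0.32 and 0.05 ± 0.15. All 3 SLC30A1 differences were above 0, but the smallest (242716_at) was -0.14 within the smaller set. Of the 13 metallothionein differences 11 were below 0, against 53.2% of all probe sets. A difference between SLC30A1 and the metallothioneins was not tested.

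Genes of zinc and copper traffic showed no calls in the fit with the array set block as described above. With 1 probe set per gene, 2.57% of all 19775 genes passed in either direction and 21.4% had an unadjusted p under 0.05, the share against which the unadjusted counts of the lists stand. Of MTF1 and the 10 zinc exporters of the SLC30A family 0 of 11 passed in limma, with 4 at an unadjusted p under 0.05 (2 higher and 2 lower) and a median of -0.08. SLC30A5, the brightest, had -0.08 ± 0.12. Its other probe sets had -0.15 to 0.62 and did not pass, and on the highest of them (220181_x_at) every CTCF array lay above both controls. Of 14 zinc importers of the SLC39A family 0 passed in limma, with 6 at an unadjusted p under 0.05 (2 higher and 4 lower), a median of -0.04 and SLC39A14 at -0.03 ± 0.13. The dimmer SLC39A14 probe sets had 0.24 ± 0.11 and 0.35 ± 0.14 and did not pass. Of 16 measured copper genes 0 passed in limma, with 4 higher and 0 lower at an unadjusted p under 0.05, a median of 0.06, and SOD1, copper-zinc superoxide dismutase, at 0.24 ± 0.11.

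Other genes that respond to metals, oxidants or glucocorticoids also gave 0 calls. Of 19 measured metal and oxidative stress genes 0 passed in limma. Here 5 were higher and 1 lower at an unadjusted p under 0.05, where 21.4% of all genes had one, and the median was 0.28 against -0.02 over all genes. PRDX1, a peroxiredoxin, read 6009 and 6089 in the control arrays and 9234, 9908, 9298 and 8559 in CTCF arrays 1 to 4, with no overlap between the groups. Its difference of 0.59 ± 0.12 did not pass (adjusted p = 0.0708 in limma), but passed with a pseudocount of 64, without dim probe sets or with a variance trend (adjusted p = 0.0226, 0.0378 and 0.005, over a range of 0.005 to 0.732). Of 10 measured glucocorticoid-responsive genes 0 passed in limma, with 0 higher and 2 lower at an unadjusted p under 0.05, a median of -0.09, and FKBP5, a chaperone of the glucocorticoid receptor, at 0.25 ± 0.14. The dimmer FKBP5 probe sets had 0.56 ± 0.12 and 0.33 ± 0.13 and did not pass. Over the 70 genes of these zinc, copper, stress and glucocorticoid lists, calls were 0 with the group as the only term, where 3 of all 19775 genes passed. With median centring and with array weights there was 1 call each, SLC30A4, where 3.55% and 4.76% of all genes passed. Calls were 3 with a pseudocount of 64 (5.82% of all genes passed), 6 of the 57 kept without dim probe sets (10.6% of all) and 6 with a variance trend (6.73% of all). The zinc and copper genes among them were SLC30A9 with the pseudocount, and SLC30A4, SLC39A6 and SCO1 in both other fits.

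Among 16 other BBSome and Bardet-Biedl genes 1 passed, BBS1, which fell, where 2.57% of all genes passed in either direction. Nothing is read about the list from this count. BBS1, another BBSome subunit (218471_s_at), read 115 and 320 in the control arrays and 143, 133, 126 and 58.9 in CTCF arrays 1 to 4. It resembled BBS2 in being dimmer in the smaller set, with a set term of -1.14, and its groups overlapped. The difference was -1.02 ± 0.14 (adjusted p = 0.0352 in limma), with -0.81 and -1.16 within the smaller and larger sets. The call ended in the group-only fit (adjusted p = 0.937) and without any 1 of the 6 arrays (adjusted p = 0.0559 to 0.432), fits in which 0 to 762 of all 54613 probe sets passed. The other 2 BBS1 probe sets, below 60 on all arrays, had -0.15 ± 0.14 and 0.45 ± 0.17. The median of the 16 genes was -0.15, with 0 higher and 3 lower at an unadjusted p under 0.05, where 21.4% of all genes had one.

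The nearest 3 measured genes on each side of the cluster had differences from -0.27 to 0.25 on their brightest probe sets. In RefSeq order BBS2 comes first, then MT4, MT3, MT2A, MT1E, MT1M, MT1F, MT1G, MT1H and MT1X. Next to BBS2 are OGFOD1, a prolyl hydroxylase of a ribosomal protein, at -0.16 ± 0.14, NUDT21, a cleavage factor of mRNA 3' ends, at -0.21 ± 0.11, and GNAO1-AS1 at -0.14 ± 0.13. Next to MT1X are NUP93, a nuclear pore scaffold protein, at 0.25 ± 0.13, SLC12A3, a sodium chloride cotransporter, at 0.19 ± 0.16, and HERPUD1, of endoplasmic reticulum protein degradation, at -0.27 ± 0.24. These probe sets of OGFOD1 and NUP93 read 821 to 1193 and 451 to 1046. That of GNAO1-AS1 was dim in the larger set, at 5.09 to 9.97, and read 79.1 and 70.7 in the smaller. None of these 6 passed. Another NUDT21 probe set (202697_at) had -0.54 ± 0.11 (adjusted p = 0.0835 in limma), and 213461_at had -0.19 ± 0.11. On 202697_at and on the brightest NUDT21 probe set (224830_at) every CTCF array lay below both controls, as on 7.18% of all probe sets. On 213461_at the groups overlapped. The other probe sets of OGFOD1 had -0.04 to 0.34, and those of SLC12A3 had 0.21 and 0.52. Over the 15 measured genes on each side, differences ranged from -0.88 to 0.59 with a median of 0.04, and 12 of 30 were negative. Of these 30, 9 had a mean under 16, where the 16 added to each value makes differences look smaller. The members were grouped with this comparison known, so no boundary at the cluster is read from these values. Of the 30 genes 1 passed, where 2.57% of all genes passed in either direction.

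That gene was LPCAT2, a lysophospholipid acyltransferase, 12 measured genes away from BBS2. It fell by 0.86 on the log2 scale (SE 0.12, adjusted p = 0.0352 in limma), reading 124 and 266 in the control arrays and 143, 152, 142 and 55.8 in CTCF arrays 1 to 4. The groups overlapped, and within the smaller and larger sets the differences were -0.96 and -0.80. Its call also ended in the group-only fit (adjusted p = 0.937) and without any 1 of the 6 arrays (adjusted p = 0.0559 to 0.398). Its 3 other probe sets had differences of -0.74 to -0.03 and did not pass.

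**Figure D5:**
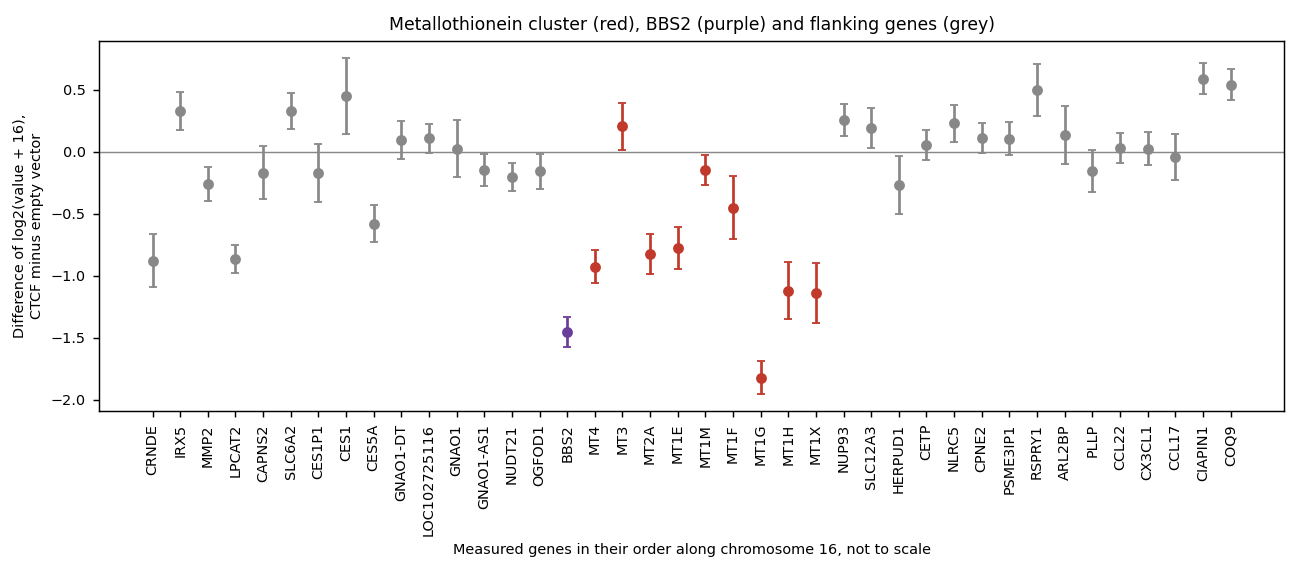
Difference of log2(value + 16), CTCF minus empty vector, with SE, for 1 probe set per gene in the order of the genes along chromosome 16 (not to scale), with metallothioneins in red, BBS2 in purple and 15 measured genes on each side in grey. BBS2 at -1.45 and MT1G at -1.82 are the lowest points, and OGFOD1 at -0.16 and NUP93 at 0.25 flank the cluster.

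Of the 14, the authors' deposited table of selections holds 1, MT1G (204745_x_at), among 768 of the 54613 (1.41%). That table gives MT1G a baseline mean of 257 and an experiment mean of 61.8, a fold change of -4.17 with bounds of -2.59 and -8.31, and a difference of means of -195.6. The authors' deposited table required a fold change of more than 1.5 either way at its lower bound and a difference of means of more than 90. Of the 30 flanking genes, the authors' deposited table lists CRNDE, a long noncoding RNA gene, with a fold change of -1.94. In limma CRNDE had -0.88 ± 0.21 and did not pass (adjusted p = 0.109).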

How the data were processed

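Labelled RNA from 2 empty vector and 4 CTCF samples of K562 was hybridised to Affymetrix U133 Plus 2.0 arrays, per the labels' protocols, and groups and replicate numbers are those in the titles. The value table, as deposited, holds 1 linear intensity per probe set and array. How the authors corrected background, summarised probes and normalized is not given in the sources used here. Their second deposited table, of selected probe sets, holds means, folds and differences, used as scores of the authors, per the file headers.

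Values were taken as log2(value + 16) and fitted with limma 3.58.1 in R 4.3.3 on 54613 probe sets, leaving out 62 AFFX controls, with the group and the array set as terms. P-values are 2-sided and Benjamini-Hochberg adjusted over all of them. Array sets come from average-linkage clustering of 45 spike-in probe sets. Each gene of a list is represented by its probe set with the highest mean log2 value. Gene names are those of GEO's platform annotation, with symbols updated by Entrez ID (41037 of 41091). Named are all members, the measured metallothionein relatives, MTF1, SLC30A1, CTCF, the nearest 3 genes on each side, the genes of each list past the threshold (up to 3 by size) or its brightest, and the 5 genes most like MT2A. CRNDE is named outside that rule, after its values were seen. The members, lists and array set term were chosen with earlier results of these data known. The scripts were tested on simulated data. The files name no genome build, so only promoter windows have coordinates, those of RefSeq's GRCh38.p14. Alternatives are given in the closing section.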

Additional observations from a re-analysis of the deposited data

Results flagged for a closer look

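In a group of 4 arrays, a value was marked when its gap to the nearest other exceeded Dixon's critical share of the group's range. Of 35 probe sets described here, 8 had such a value among the CTCF arrays, where chance marks about 1 in 20 groups. For 7 of them the array was CTCF array 4, the only CTCF array of the smaller set. It read 1549 for MT2A, 136 for MT4, 2.89 for MT1M and 43.3 for BBS2. It read 291 for MTF1 (205322_s_at), 55.8 for LPCAT2 and 70.7 for GNAO1-AS1. For CTCF the value apart was 1614, in CTCF array 2. Empty vector array 1, the other array of the smaller set, stood on the same side of empty vector array 2 for MT2A, MT4, BBS2, MTF1, LPCAT2 and GNAO1-AS1, and on the opposite side for MT1M, at 2.62 against 4.42.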

How the results depend on the processing

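Of 14 member probe sets 11 kept the sign of their difference in each of the 15 or 16 alternatives that fitted them. The exceptions were MT3, MT1M and the dim MT1G probe set (210472_at). The stricter threshold, the variance trend and leaving out dim probe sets cannot change a difference, so the same sign there was fixed in advance. The fits without empty vector array 1 and without CTCF array 4 give the same difference. MT2A ranged from -1.61 to -0.65, BBS2 from -1.65 to -1.04 and MT1G (204745_x_at) from -2.05 to -1.36. Calls moved far more than differences in the group-only fit and with a pseudocount of 1, both of which can change a difference. The lists counted here are those of other metallothioneins and of zinc, copper, stress, glucocorticoid and BBSome genes, without the cell markers. With the group alone there were 6 calls over all probe sets, 0 among members, 0 in the lists and 0 among the flanking genes, and the member and metallothionein medians were -1.05 and -1.04. A pseudocount of 1 gave 2, 0, 0 and 0 calls and medians of -1.11 and -1.11, and a pseudocount of 64 gave 2140, 4, 5 and 3 and medians of -0.61 and -0.59. Calls in the same order were 2642, 7, 8 and 2 without dim probe sets, which keeps 11 members, 2567, 6, 8 and 4 with a variance trend, 1913, 4, 3 and 1 with array weights, and 22, 0, 0 and 0 at a threshold of 0.01. Averaging the probe sets of each gene gave 3 list calls and median centring gave 2, against 1. Leaving out 1 array gave 0 to 762 calls over all probe sets against 1017, with 0 to 2 among members and 0 in the lists and among the flanking genes, counts that show little beside so few calls. The member median then ranged from -1.19 to -0.68 and the metallothionein median from -1.07 to -0.65. Without empty vector array 1 or CTCF array 4 the block absorbs the other array of the smaller set, so both fits use the larger set alone, and the lone empty vector array is assumed to vary like the CTCF arrays. Higher probe sets were 28.9% of the calls as deposited, 42.3% after quantile normalization and 36.6% after median centring. The replicate block, run without the array set, gave 0 calls anywhere and a BBS2 difference of -1.04. Whether the numbers pair the arrays cannot be read from the data. Deviations from the group means correlated at -0.68 for number 1 and 0.70 for number 2, signs that the array sets fix. Dim probe sets such as MT1M limit what can be read. The cause of these shifts was not tested.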
